A study of Homo sapiens with 10 samples.

Results

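The 10 genes described here are the Notch receptors NOTCH1, NOTCH2 and NOTCH3, the ligands JAG1, JAG2, DLL1 and DLL4, and the Notch target genes HES1, HES4 and HEY1, taken by gene symbol from the 28265 genes counted in each library and followed from day 16 to day 45. RNA was sequenced in bulk from live NKX2-1GFP+ cells sorted out of human thyroid organoids, with 2 libraries per day at days 16, 23, 31, 38 and 45. The cells came from the line registered as ESIBIe003-A-6, a derivative of the human embryonic stem cell line HES3. In this line GFP replaces part of 1 NKX2-1 allele, so that all groups carry a single intact copy of this gene. Besides this copy, they carry lentiviral transgenes for NKX2-1 and PAX8 that are switched on by doxycycline. All groups had passed through Activin A, which induces endoderm, and then doxycycline. By the study's schedule the day 16 cells had been in basal medium, although their label names cAMP. The day 23 and day 31 cells received 8-br-cAMP, a cell-permeable cAMP analogue (day 31 is labelled cAMP but falls just after the scheduled change of medium). The day 38 cells received recombinant human TSH (hrTSH) and dexamethasone, a glucocorticoid. The day 45 cells received these and SB431542, which blocks TGFβ receptor kinases, and their label leaves out dexamethasone. Except between days 23 and 31, both labelled cAMP, time and medium therefore changed together in these libraries and cannot be told apart. The 2 libraries of a day are biological duplicates by the study's methods, each from pooled wells, and nothing in the labels says that they came from separate differentiations, so the p-values measure the spread between these libraries. Counted reads ran from 7247268 to 10333933 per library.

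Notch receptors are cell-surface proteins that are activated by ligands on a neighbouring cell. Jagged and Delta-like ligands, once bound, are pulled into the cell that makes them, and this exposes the receptor to cleavage, by ADAM10 at the surface and then by γ-secretase in the membrane. The released intracellular part of the receptor enters the nucleus, joins the DNA-binding protein RBPJ and a Mastermind coactivator (the MAML genes), and turns on genes of the HES and HEY families, which encode basic helix-loop-helix repressors. In epithelial organs that derive from the foregut, the pathway is known for choices between cell fates in progenitors. RNA counts give the level of the transcripts and not the cleavage of the receptors. In sorted bulk samples, a change in the share of cells that express a gene and a change in RNA per cell cannot be told apart.

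RBPJ is known to bind the letters TGGGAA, and a longer form, GTGGGAA, contains them. The windows from 250 bases before to 50 bases from the gene start on were searched on both strands for both forms. Among 35116 RefSeq windows of 300 bases on GRCh38.p14, 24% held TGGGAA, 3.8% held it at least 2 times, and 6.25% held GTGGGAA. Of the 8 members with a window, HES1 held TGGGAA at −84 and −70 and HES4 at −76, counted from the RefSeq gene start as 0, while NOTCH1, NOTCH2, NOTCH3, JAG1, JAG2 and DLL4 held none. HES1 and HES4 held GTGGGAA at −85 and −77. The gene positions given further on are those of GENCODE, whose outermost start is the same for HES1 but lies 75 bases before the RefSeq start for HES4 and 1968 before it for HEY2. The match of HES4 begins at the edge of the gene as GENCODE places it. Of the 8 targets in the wider list of pathway genes with a window, 4 (HEY2, HEYL, HES5 and HES3) held TGGGAA and 4 (NRARP, HES6, HES7 and HES2) did not. HEY2, a relative of HEY1 and the one of these 8 with a weekly call, held it at −3 and, on the other strand, at −213. These 3 windows are shown because these target genes carry the same letters but followed different courses over the days. Capitals mark TGGGAA, read on either strand, and each window is written 5′ to 3′ on the strand of its gene. The windows lie at chr3:194135898-194136197 on the plus strand for HES1, at chr1:1000048-1000347 on the minus strand for HES4 and at chr6:125749382-125749681 on the plus strand for HEY2.
HES1: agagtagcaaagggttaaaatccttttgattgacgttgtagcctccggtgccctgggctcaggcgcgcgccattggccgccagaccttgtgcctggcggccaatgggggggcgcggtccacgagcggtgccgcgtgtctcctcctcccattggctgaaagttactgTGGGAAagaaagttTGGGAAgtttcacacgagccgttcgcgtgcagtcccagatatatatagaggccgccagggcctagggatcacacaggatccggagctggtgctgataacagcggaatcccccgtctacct
HES4: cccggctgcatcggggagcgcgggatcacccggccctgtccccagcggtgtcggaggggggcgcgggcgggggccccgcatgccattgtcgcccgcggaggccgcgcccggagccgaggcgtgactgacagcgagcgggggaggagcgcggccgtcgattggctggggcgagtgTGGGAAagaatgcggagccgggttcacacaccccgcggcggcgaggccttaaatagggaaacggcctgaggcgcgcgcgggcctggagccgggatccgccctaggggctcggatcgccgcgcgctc
HEY2: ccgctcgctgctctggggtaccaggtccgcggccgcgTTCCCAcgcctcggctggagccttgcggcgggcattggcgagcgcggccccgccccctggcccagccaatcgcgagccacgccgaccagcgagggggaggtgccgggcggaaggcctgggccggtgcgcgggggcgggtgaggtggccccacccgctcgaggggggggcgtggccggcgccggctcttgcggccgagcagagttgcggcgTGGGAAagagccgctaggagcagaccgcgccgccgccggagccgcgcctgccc
A match of letters is a description of the window, and binding was not measured in these samples.

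All 10 members passed the filter of at least 5 counts in at least 2 libraries and were tested among 21014 genes with edgeR's quasi-likelihood test and Benjamini-Hochberg adjustment, with a threshold of 0.05. Levels are counts scaled to a common library size with edgeR's TMM factors (CPM). For any difference among the 5 days, 8 of the 10 members were called, against 36.3% of all genes tested, and DLL1 (edgeR adjusted p = 0.858) and DLL4 (edgeR adjusted p = 0.157) were not called. By role, the 3 receptors and the 3 targets were called, and JAG1 and JAG2 among the 4 ligands. The members were chosen with earlier results of these data known, and the 36.3% covers genes of all levels that passed the filter. Whether the members differ from genes of like level was not tested.

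From day 16 to day 23, over the start of cAMP, 2 receptors rose while a ligand and 2 targets fell. Of the 10 members, 2 were called higher, against 5.60% of all genes tested, and 3 were called lower, against 5.33%. From day 23 to day 31, within cAMP, edgeR called 0 members, against 1.58% of genes called higher and 0.666% called lower. DESeq2 also called 0, and 1 member had an unadjusted p below 0.05. From day 31 to day 38, over the change to hrTSH and dexamethasone, 3 members were called higher, against 8.80% of all genes, and 2 lower, against 6.23%. From day 38 to day 45, over the addition of SB431542, 1 was called higher, against 4.85%, and 1 lower, against 6.35%. The median absolute log2 fold change of the 10 members was 0.79 from day 16 to day 23, against 0.49 over all genes tested, 0.29 against 0.35 in the next step, 0.45 against 0.55 from day 31 to day 38, and 0.44 against 0.51 from day 38 to day 45. Over the longer spans, 2 members were higher and 2 lower at day 31 than at day 16, against 7.00% and 5.87% of all genes, and 2 were higher and 2 lower at day 45 than at day 31, against 11.3% and 11.1%. In all, 7 members were called in at least 1 weekly step, against 27.4% of all genes tested. NOTCH1, JAG1 and HEY1 were called in 2 of the steps and NOTCH3 in 3, where 9.33% of all genes were called in 2 or more. Neighbouring steps share the libraries of a day, so a high value on a shared day raises 1 step and lowers the next.

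**Figure D1:**
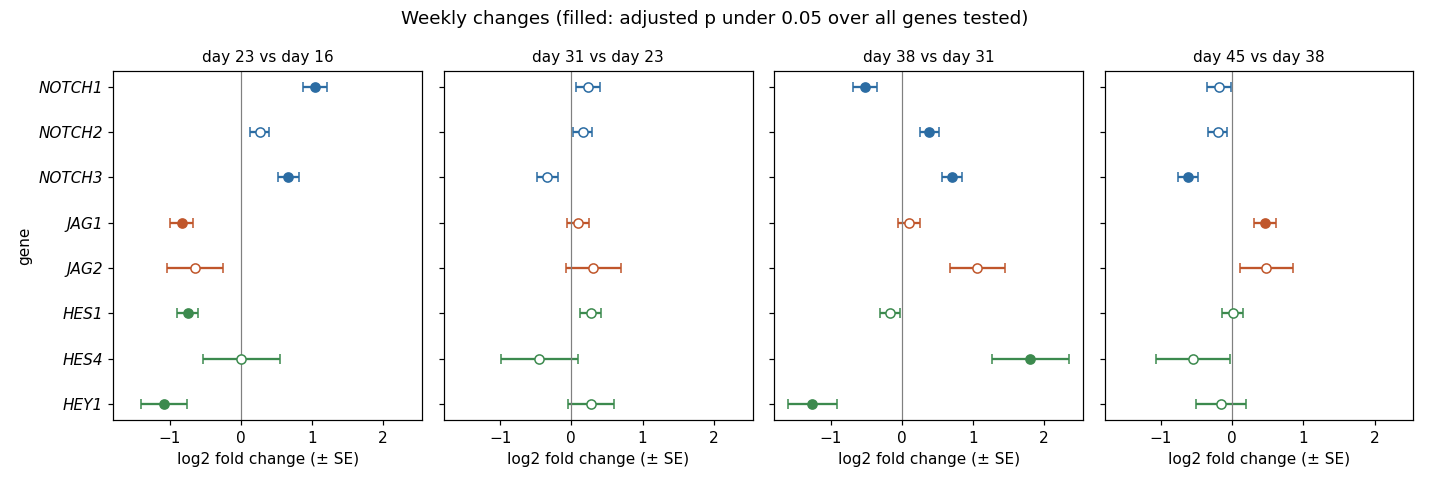
Log2 fold change (horizontal axis, the same scale in each panel) of 8 members (rows) in the 4 weekly steps, with bars of 1 approximate standard error. Filled points passed the threshold (edgeR adjusted p under 0.05 over all genes tested) and open points did not. DLL1 and DLL4, whose counts were low, are left out. From day 16 to day 23 NOTCH1 and NOTCH3 are to the right of 0 and JAG1, HES1 and HEY1 to the left, and from day 23 to day 31 no point is filled.

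NOTCH1, a receptor with broad roles in cell fate (chromosome 9, 136494433 to 136546048, minus strand, GRCh38), rose in the cAMP phase and fell after it. It was at 46.4 and 60.3 CPM on day 16, 121 and 98.3 on day 23, 124 and 133 on day 31, 93.6 and 86.5 on day 38, and 83 and 76 on day 45. No library of any day overlapped those of another day, and the order of the days was 31, 23, 38, 45 and 16. From day 16 to day 23 its log2 fold change was 1.04 (standard error, SE, of 0.17, edgeR adjusted p = 4.24e-05), and 1.27 from day 16 to day 31 (SE 0.171, edgeR adjusted p = 8.34e-07). From day 31 it fell, with a log2 fold change of −0.52 on day 38 (SE 0.166, edgeR adjusted p = 0.0304), and −0.70 on day 45 (SE 0.168, edgeR adjusted p = 0.00193). The day 38 call was lost when any of the 4 libraries compared was left out (edgeR adjusted p from 0.0912 to 0.247), with values between −0.57 and −0.46.

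NOTCH2, the receptor known from Alagille syndrome alongside its ligand JAG1 (chromosome 1, 119911553 to 120100779, minus strand), moved less than the other receptors, with a highest daily mean 1.75 times the lowest, against 2.41 for NOTCH1 and 2.05 for NOTCH3. It was at 153 and 164 CPM on day 16, 175 and 206 on day 23, 220 and 205 on day 31, 281 and 273 on day 38, and 253 and 228 on day 45. The day 38 libraries lay above all others, and those of days 23 and 31 overlapped. It was higher on day 31 than on day 16 by a log2 fold change of 0.42 (SE 0.134, edgeR adjusted p = 0.0294), and higher on day 38 than on day 31 by 0.38 (SE 0.132, edgeR adjusted p = 0.0455). The second of these calls was lost with library size alone as the scaling (0.17, edgeR adjusted p = 0.448), under which the median of all genes was −0.20, with upper-quartile factors (0.33, edgeR adjusted p = 0.0897), and when any library of day 23, 31 or 38 was left out (edgeR adjusted p from 0.0569 to 0.249). The first was lost in a fit of the 2 days alone (0.42, edgeR adjusted p = 0.0949) and without day 16 replicate 1 or either day 31 library (edgeR adjusted p from 0.0658 to 0.204). NOTCH2 shared 8.69% of its 50-base exon stretches with the NOTCH2NL genes, partial copies of it, so its counts are uncertain. Of these, NOTCH2NLB held 179 to 317 counts and NOTCH2NLC 180 to 417, and NOTCH2NLA and NOTCH2NLR held 0 counts in every library.

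NOTCH3, the receptor known from vascular smooth muscle and pericytes (chromosome 19, 15159038 to 15200995, minus strand), was the receptor with the highest level per length at every day. It was called higher on day 23 and on day 38, each against the week before, and lower on day 45. It was at 207 and 145 CPM on day 16, 294 and 266 on day 23, 227 and 216 on day 31, 365 and 358 on day 38, and 261 and 209 on day 45. The day 38 libraries lay above those of all other days, while days 31 and 45 overlapped. Its log2 fold change was 0.67 from day 16 to day 23 (SE 0.146, edgeR adjusted p = 0.00158), 0.71 from day 31 to day 38 (SE 0.145, edgeR adjusted p = 5.14e-04) and −0.62 from day 38 to day 45 (SE 0.145, edgeR adjusted p = 0.0031). The value between days 23 and 31, −0.34, did not pass the test (edgeR adjusted p = 0.326). The day 23 call was lost without day 16 replicate 2 (0.43, edgeR adjusted p = 0.0574), the day 45 call was lost without day 45 replicate 2 (−0.47, edgeR adjusted p = 0.111), and the rise on day 38 was called in all 18 refits of the model with another scaling, filter, fit or tool or without 1 library, at 0.49 to 0.75. All 3 values lie under a minimum size of 1 on the log2 scale.

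Per kilobase of the reference transcript, NOTCH3 averaged 29.4 CPM per kb over the 10 libraries, NOTCH2 18.9 and NOTCH1 9.64. NOTCH1 made up 11.5 and 16.9% of the summed level per length of the 3 receptors in the day 16 libraries, 22.2 and 24.6% on day 31, and 12.8 and 12.2% on day 38. NOTCH3 made up 44.8 and 43.8% on day 31 and 55 and 55.6% on day 38. The receptor mix on day 31 thus held more NOTCH1 and less NOTCH3 in both libraries than on day 38, as a description, with no test.

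**Figure D2:**
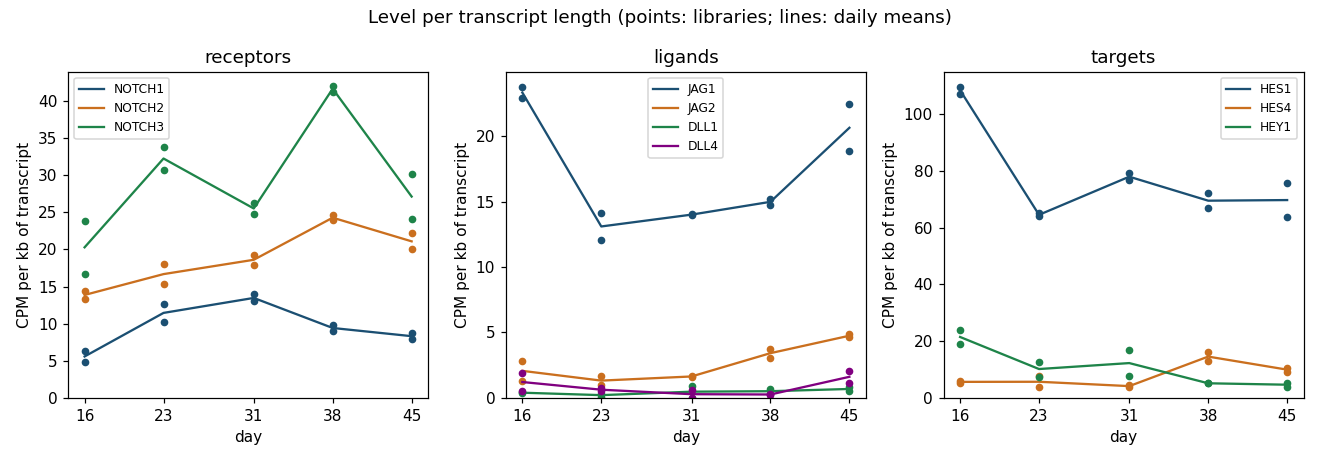
Level per transcript length, in CPM per kilobase (linear axes from 0), of the receptors, ligands and targets against day. Points are libraries and lines join daily means. NOTCH3 lies above NOTCH2 and NOTCH1 at every day mean, JAG1 lies above the other 3 ligands in every library, and HES1 lies above HES4 and HEY1 in every library.

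JAG1, the ligand mutated in Alagille syndrome (chromosome 20, 10637684 to 10673999, minus strand), fell with the start of cAMP and was higher again by day 45. It was at 141 and 136 CPM on day 16, 83.9 and 71.8 on day 23, 83 and 83.4 on day 31, 90.5 and 87.6 on day 38, and 112 and 133 on day 45. The day 16 libraries lay above all others, and days 23 and 31 overlapped. Its log2 fold change was −0.83 from day 16 to day 23 (SE 0.157, edgeR adjusted p = 2.68e-04) and −0.74 from day 16 to day 31 (SE 0.156, edgeR adjusted p = 8.32e-04), both called in all 18 refits but under a minimum size of 1. At day 45 it was higher than on day 38 by 0.46 (SE 0.156, edgeR adjusted p = 0.0486) and higher than on day 31 by 0.56 (SE 0.156, edgeR adjusted p = 0.00736). The first of these lay next to the threshold and was lost in 8 of 18 refits, among them no low-count filter (edgeR adjusted p = 0.0624) and the fit without day 45 replicate 2 (0.33, edgeR adjusted p = 0.342). The second was lost with library size alone (0.40, edgeR adjusted p = 0.0651) and without either library of day 31 or day 45 replicate 2 (edgeR adjusted p from 0.0548 to 0.119). Over 306 bases a long non-coding RNA that is not among the genes counted lies on the strand opposite to JAG1.

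JAG2, the other Jagged ligand (chromosome 14, 105140982 to 105168824, minus strand), was low in the cAMP phase and highest on day 45. It was at 7.61 and 16.3 CPM on day 16, 5.54 and 9.72 on day 23, 9.72 and 9.19 on day 31, 17.7 and 21.8 on day 38, and 28 and 26.9 on day 45. The day 45 libraries lay above all others, the day 38 libraries came next, and the ranges of days 16, 23 and 31 overlapped. Day 45 against day 31 gave a log2 fold change of 1.54 (SE 0.385, edgeR adjusted p = 0.00295), called in all 18 refits at 1.37 to 1.58. The step from day 31 to day 38, at 1.06 (SE 0.384), did not pass the test (edgeR adjusted p = 0.0584). JAG2 shared 6.53% of its 50-base exon stretches with a long non-coding RNA on the same strand, which is not among the genes counted, so its counts are less certain than those of JAG1.

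The Delta-like ligands had low counts. DLL1 (chromosome 6, 170282206 to 170306565, minus strand) had between 1 and 30 counts per library, with 13 and 11 on day 16, 3 and 11 on day 23, 1 and 30 on day 31, 25 and 10 on day 38, and 13 and 30 on day 45. DLL4, known from the tips of growing vessels (chromosome 15, 40929340 to 40939073, plus strand), had 52 and 14 counts on day 16, 16 and 22 on day 23, 19 and 0 on day 31, 10 and 6 on day 38, and 49 and 36 on day 45. For DLL1, the 2 libraries of day 31 spanned the values of all other libraries, and for DLL4 the libraries of most days overlapped those of other days. A count of 0 allows up to 3 counts, 0.372 CPM by library size in day 31 replicate 2, and the floor covers counting error only. No step of either gene passed the test. DLL4 had 2.61 as its log2 fold change from day 38 to day 45 (SE 1.12, edgeR adjusted p = 0.148), with libraries that did not overlap. Reads over 370 bases of DLL1, 9.69% of its exons, could come from FAM120B on the opposite strand, since the strand setting of the counting is not stated.

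JAG1 averaged 17.2 CPM per kb of transcript, JAG2 2.64, DLL4 0.80 and DLL1 0.46. JAG1 made up 86.6 and 86.2% of the summed level per length of the 4 ligands on day 16 and 71.7 and 77.1% on day 45, and JAG2 4.81 and 10.6% on day 16 and 18.5 and 16% on day 45. The ligand pool was JAG1 for the most part in every library, with a larger share of JAG2 in the 4 libraries of days 38 and 45, from 15.9 to 19.8%, than in the 6 earlier ones, all at 11.3% or less.

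Among the targets, HES1, a repressor that Notch induces in many tissues (chromosome 3, 194136148 to 194138732, plus strand), had the highest level per length of all 10 members. It was at 169 and 173 CPM on day 16, 101 and 103 on day 23, 125 and 121 on day 31, 114 and 105 on day 38, and 100.3 and 119 on day 45. The day 16 libraries lay above all others, and days 38 and 45 overlapped. Between days 16 and 23 it fell (log2 fold change −0.75, SE 0.147, edgeR adjusted p = 4.71e-04), called in all 18 refits at −0.78 to −0.70 but under a minimum size of 1. Day 31 was lower than day 16 by a log2 fold change of −0.48 (SE 0.146, edgeR adjusted p = 0.0248), a call lost with library size alone (−0.41, edgeR adjusted p = 0.0597), in a fit of the 2 days alone (edgeR adjusted p = 0.0659) and without either day 31 library (edgeR adjusted p of 0.106 and 0.135) or day 16 replicate 2 (edgeR adjusted p = 0.0635). Over the same week in which HES1 fell, NOTCH1 and NOTCH3 rose and JAG1 fell. A link between these courses and that of HES1 was not tested.

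HES4, a HES family repressor (chromosome 1, 998962 to 1000172, minus strand), was low until day 31 and then rose. It was at 5.33 and 4.68 CPM on day 16, 3.33 and 6.75 on day 23, 4.09 and 3.26 on day 31, 14.3 and 11.5 on day 38, and 9.44 and 8.19 on day 45, from 28 to 132 counts per library. All 4 libraries of days 38 and 45 lay above the 6 earlier ones. From day 31 to day 38 the log2 fold change was 1.81 (SE 0.544, edgeR adjusted p = 0.0192). The call was lost when any of the 4 libraries compared was left out (edgeR adjusted p from 0.0694 to 0.187), with values between 1.64 and 1.98. Day 45 was not called against day 38 (−0.55, edgeR adjusted p = 0.60) or day 31 (1.26, edgeR adjusted p = 0.0979).

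HEY1, a hairy/enhancer-of-split related repressor, was lower late than early, and its day 31 libraries differed widely. It was at 41.5 and 53 CPM on day 16, 28.2 and 16.6 on day 23, 36.8 and 17.1 on day 31, 11.2 and 11.4 on day 38, and 11.9 and 8.52 on day 45. The day 16 libraries lay above all others, days 23 and 31 overlapped, days 38 and 45 overlapped, and these last 4 libraries lay below the 6 earlier ones. Its log2 fold change was −1.08 from day 16 to day 23 (SE 0.327, edgeR adjusted p = 0.0263), −1.26 from day 31 to day 38 (SE 0.338, edgeR adjusted p = 0.00813) and −1.41 from day 31 to day 45 (SE 0.343, edgeR adjusted p = 0.00211). Day 31 replicate 1 set the size of the later values: without it they were −0.59 (edgeR adjusted p = 0.412) and −0.75 (edgeR adjusted p = 0.212), and without replicate 2 of that day they were −1.71 and −1.87. The day 38 call was also lost without either day 38 library (edgeR adjusted p = 0.0743 and 0.0668), and the call between days 31 and 45 without day 45 replicate 2 (−1.18, edgeR adjusted p = 0.0587). The day 23 call was lost without day 16 replicate 2 (−0.89, edgeR adjusted p = 0.178) or day 23 replicate 2 (−0.75, edgeR adjusted p = 0.318).

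HES1 averaged 78.1 CPM per kb of transcript over the 10 libraries, HEY1 10.7 and HES4 8.0. HEY1 exceeded HES4 per length in each of the 4 libraries of days 16 and 31, with daily means of 21.5 and 5.65 CPM per kb on day 16. HES4 exceeded HEY1 on day 38, with daily means of 14.6 and 5.15, and on day 45, with 9.96 and 4.65. At day 23 the 2 genes were in opposite order in the 2 libraries by share, HEY1 holding 15.9% and HES4 4.66% of the summed target level in replicate 1 and 9.40% and 9.49% in replicate 2.

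A wider list of 59 Notch pathway genes in 9 roles was read in the same fit, and 56 of them passed the filter. Of these 56, 27 were called for any difference among days, against 36.3% of all genes tested. From day 16 to day 23, 4 rose and 3 fell, against 5.60% and 5.33% of all genes, and from day 23 to day 31 1 rose and 1 fell, against 1.58% and 0.666%. From day 31 to day 38, 8 rose and 4 fell, against 8.80% and 6.23%, and from day 38 to day 45 6 rose and 4 fell, against 4.85% and 6.35%, so that 19 genes were called in at least 1 weekly step, against 27.4% of all genes. The median absolute log2 fold change of the 56 was 0.41 from day 16 to day 23 and 0.52 from day 31 to day 38, against 0.49 and 0.55 over all genes tested.

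Among the genes of this list with a mean of at least 5 CPM, the largest course was that of DLK1. This gene (chromosome 14, 100725705 to 100738224, plus strand) encodes a transmembrane relative of the Delta ligands that lacks their receptor-binding DSL domain. It was at 12 and 11.9 CPM on day 16, 120 and 121 on day 23, 189 and 190 on day 31, 379 and 314 on day 38, and 569 and 449 on day 45. It rose in each of the 4 steps, with no overlap between any 2 days and a mean 42.4 times as high on day 45 as on day 16. The log2 fold changes were 3.33 from day 16 to day 23 (SE 0.165, edgeR adjusted p = 1.48e-16), 0.66, 0.87 and 0.56 in the following steps (edgeR adjusted p = 0.0043, 1.24e-05 and 0.00461). The step to day 31 was lost when any of its 4 libraries was left out, and the step to day 45 was lost without day 38 replicate 2 (0.43) or day 45 replicate 1 (0.37). In the same first week JAG1 fell, as given above. The other 4 ligands of the list, DLL3, DLK2, DNER and EGFL7, were called in no weekly step.

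Among the targets of the wider list, HEY2 was called and its values went up and down. It was at 28.4 and 19.3 CPM on day 16, 15.8 and 9.83 on day 23, 4.09 and 4.19 on day 31, 17 and 11.9 on day 38, and 5.08 and 5.46 on day 45. The day 38 libraries lay above those of both day 31 and day 45, with no overlap. The log2 fold changes were −1.63 to day 31 (edgeR adjusted p = 0.0308), 1.80 to day 38 (SE 0.428, edgeR adjusted p = 0.00273) and −1.45 to day 45 (edgeR adjusted p = 0.0202). The rise on day 38 was lost without day 38 replicate 1 (1.52), the fall to day 31 in a fit of the 2 days alone (edgeR adjusted p = 0.122) and without day 23 replicate 1 (−1.25), either day 31 library or day 38 replicate 1, and the fall to day 45 without day 38 replicate 1 (−1.17) or either day 45 library. HEY2 and HES4 were thus both called higher on day 38, where HEY1 was called lower and HES1, at −0.17, was not called (edgeR adjusted p = 0.528). NRARP, which encodes a feedback inhibitor, was at 2.74 to 19.8 CPM. Its day 45 libraries, at 18.1 and 19.8 CPM, lay above all others. It and the other 5 targets tested, HES5, HES6, HES7, HEYL and DTX1, were called in no weekly step. None of these targets was called at day 45 against day 31. NOTCH4, HES2 and HES3 did not pass the filter, with at most 0.73, 1.16 and 0.57 CPM in any library.

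In the nuclear complex, RBPJ itself rose on day 38 and fell on day 45. It was at 182 and 228 CPM on day 16, 195 and 195 on day 23, 225 and 206 on day 31, 398 and 423 on day 38, and 219 and 258 on day 45. The day 38 libraries lay above all others. The log2 fold changes of 0.93 and −0.78 (SE 0.134 for both, edgeR adjusted p = 2.8e-06 and 6.96e-05) were called in all 18 refits but lie under a minimum size of 1. The coactivator MAML2 followed the same steps, at 0.58 and −0.76 (edgeR adjusted p = 0.0241 and 0.00421), calls lost without day 31 replicate 2 (0.42) or either day 38 library for the first, which was also lost with library size alone (0.37), and without day 38 replicate 2 (−0.67) or day 45 replicate 1 (−0.50) for the second. KAT2A, a histone acetyltransferase, was lower on day 23 (−0.76, edgeR adjusted p = 0.0405), a call lost with library size alone (−0.71), in a fit of the 2 days alone and when any library of days 16, 23 and 38 was left out.

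Among the repressors that hold Notch targets silent with RBPJ or with HES proteins, the genes went different ways. SPEN, a corepressor of RBPJ, went from 319 and 289 CPM on day 16 to 484 and 477 on day 23, 533 and 530 on day 31, 294 and 295 on day 38 and 399 and 449 on day 45. Its log2 fold changes were 0.66 on day 23 (edgeR adjusted p = 1.54e-04), −0.85 on day 38 (edgeR adjusted p = 1.64e-06) and 0.53 on day 45 (edgeR adjusted p = 0.00222), all 3 called in all 18 refits but under a minimum size of 1. SPEN was thus lowest in the libraries of days 16 and 38, and on day 38 RBPJ was highest. Of the Groucho family, which HES proteins recruit, TLE3 fell on day 38 (−1.22, edgeR adjusted p = 4.9e-06) and rose on day 45 (1.39, edgeR adjusted p = 8.87e-07). TLE1 fell on day 23 (−0.82, edgeR adjusted p = 0.00154) and rose on day 38 (0.56, edgeR adjusted p = 0.0313), where the call was lost with library size alone (0.34) or upper-quartile factors (0.50) and when any library of days 31 and 38 was left out. TLE2 rose on day 23 (0.96, edgeR adjusted p = 1.88e-04) and TLE4 on day 45 (1.11, edgeR adjusted p = 0.00243), the latter not without day 38 replicate 2 (0.92).

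Of the 8 proteases and γ-secretase genes, ADAM10, which makes the cut at the cell surface, was called in 2 steps. It went from 478 and 578 CPM on day 16 to 409 and 360 on day 23, 361 and 335 on day 31, 635 and 638 on day 38 and 590 and 672 on day 45. It fell to day 23 (−0.46, edgeR adjusted p = 0.011), a call lost without day 16 replicate 2 or day 23 replicate 2 (−0.31 and −0.37), and rose to day 38 (0.87, edgeR adjusted p = 1.83e-06). All libraries of days 38 and 45 lay above those of the other 3 days. Among the γ-secretase subunits, APH1B fell on day 38 (−1.58, edgeR adjusted p = 3.82e-06), from 61.6 and 64.9 CPM to 21.9 and 20.5, and NCSTN was higher on day 23 (0.51, edgeR adjusted p = 0.035), while PSEN2, APH1A and PSENEN were called in no weekly step. FURIN, which matures the receptors, was lower on day 38 (−0.51, edgeR adjusted p = 0.0459), a call that DESeq2 did not make and that was lost with filterByExpr and when any library of days 23, 31 and 38 was left out. The NCSTN call was lost with upper-quartile factors (0.47), in a fit of the 2 days alone (0.50, edgeR adjusted p = 0.0743) and without day 16 replicate 1 (0.44) or either day 23 library. The 5 glycosyltransferases were called in no weekly step; the most abundant, POFUT1, which adds O-fucose to the receptors, lay at 47.7 to 74.9 CPM.

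In ligand endocytosis, MIB1, the ubiquitin ligase that drives uptake of the ligands, rose on day 38 (0.45, edgeR adjusted p = 0.0129), a call lost with library size alone (0.23) and without either day 31 library or day 38 replicate 2. EPN1, an endocytic adaptor, rose on day 45 (0.85, edgeR adjusted p = 0.00507), a call lost without day 38 replicate 2 (0.70) or day 45 replicate 1 (0.60). Of the receptor turnover genes, AAK1, a kinase of clathrin adaptors, rose on day 38 (1.12, edgeR adjusted p = 7.79e-07), and on day 45 FBXW7, which marks the cleaved receptor for degradation, was higher (0.67, edgeR adjusted p = 0.0443) and DTX4, a ubiquitin ligase of the Deltex family, was lower (−0.91, edgeR adjusted p = 0.00421). The FBXW7 call was lost when day 23 replicate 2 or any library of days 38 and 45 was left out, and the DTX4 call without day 38 replicate 1 (−0.87) or day 45 replicate 2 (−0.74). NUMB, a known inhibitor of Notch, was called in no weekly step and lay between 83.9 and 130 CPM.

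The labelled cell type was checked against markers. All 6 thyroid genes of the list (PAX8, NKX2-1, FOXE1, HHEX, TG and TSHR) were detected, and their summed level was 1839 and 1440.5 CPM on day 16, 1628 and 1592 on day 23, 1609.9 and 1558 on day 31, 7036 and 6314 on day 38, and 9031 and 8592 on day 45. FOXE1 was the most abundant on day 16, PAX8 on days 23 and 31 and TG on days 38 and 45. On day 23 NKX2-1, HHEX, TG and TSHR were called higher (0.64, 1.67, 4.10 and 2.44, edgeR adjusted p of at most 0.00358) and FOXE1 lower (−1.18, edgeR adjusted p = 7.35e-08). On day 38 TG and TSHR were higher (4.66 and 0.96, edgeR adjusted p = 2.37e-25 and 3.11e-04). On day 45 TG was higher (0.57, edgeR adjusted p = 1.21e-04) and NKX2-1, FOXE1 and HHEX were lower (−1.20, −0.82 and −0.86, edgeR adjusted p of at most 4.01e-05). The NKX2-1 call on day 23 was lost without day 23 replicate 1. NKX2-1, which the sort reads through GFP, was at 58.1 to 157 CPM, with its lowest values on day 45. Reads from the transgenes of NKX2-1 and PAX8 cannot be told apart from those of the endogenous genes. By the study's qRT-PCR, RNA of the transgenes had fallen to the level of cells without doxycycline before day 16.

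Markers of other cell types that use Notch moved with some of the steps above. The 5 fibroblast genes summed to 576 and 584 CPM on day 16, 696 and 688 on day 23, 631 and 692 on day 31, 2319 and 2390 on day 38, and 2301 and 1885 on day 45. COL1A1 was the most abundant on days 23 and 31 and COL1A2 on days 38 and 45. From day 16 to day 23, where 5 members were called, DCN and LUM rose (2.41 and 1.69, edgeR adjusted p = 8.79e-07 and 1.11e-08) and COL1A2 fell (−0.44, edgeR adjusted p = 0.032), and LUM fell again on day 31 (−0.77, edgeR adjusted p = 0.00781). From day 31 to day 38, the step in which NOTCH3, HES4 and RBPJ rose, COL1A1, COL1A2 and PDGFRA rose (1.75, 2.67 and 1.04, edgeR adjusted p = 1.22e-12, 2.63e-16 and 0.0263), LUM fell (−1.23, edgeR adjusted p = 2.8e-06) and DCN was not called. On day 45, where NOTCH3 fell and JAG1 rose, DCN, LUM and PDGFRA were higher (1.36, 0.94 and 1.25, edgeR adjusted p = 4.1e-04, 2.79e-04 and 0.00636). The 5 mural genes, which mark the pericytes and smooth muscle in which NOTCH3 is known to be high, summed to 78 and 88.5 CPM on day 16, 87.1 and 102 on day 23, 98.6 and 99.1 on day 31, 145 and 155 on day 38, and 179 and 150 on day 45, with RGS5 the most abundant on day 16 and PDGFRB in the other 8 libraries. In the step to day 38 CSPG4 (1.12, edgeR adjusted p = 0.00508) and ACTA2 (3.84, edgeR adjusted p = 1.75e-05) rose, and RGS5, PDGFRB and MYH11 were not called. From day 38 to day 45, where NOTCH3 fell, 0 of the 5 mural genes were called by edgeR, against 4.85% of all genes higher and 6.35% lower, and 0 by DESeq2, and 1 had an unadjusted p below 0.05. In the steps to day 23 and day 31 both tools also called 0 of them, with 1 and 0 below an unadjusted p of 0.05. The sort kept live NKX2-1GFP+ cells, and bulk counts do not tell which cells made the RNA of the fibroblast and mural genes. The part of fibroblasts and mural cells in the Notch values was not tested.

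The 6 endothelial genes summed to 23.8 and 20.7 CPM on day 16, 32.7 and 43.7 on day 23, 54.7 and 52.7 on day 31, 21.5 and 25.4 on day 38, and 48.5 and 17.5 on day 45, most of it KDR and TEK. The defining markers were low: PECAM1 had at most 14 counts and 0 in 7 libraries, VWF at most 19, ERG at most 15 and CDH5 at most 47. CDH5 had 0 and 11 counts on day 31 and 41 and 47 on day 38, a difference that did not pass the test (edgeR adjusted p = 0.169). KDR and TEK fell on day 38 (−1.66 and −1.67, edgeR adjusted p = 0.00321 and 0.0164), and TEK had risen on day 23 (2.61, edgeR adjusted p = 0.00106). The 4 airway secretory genes summed to 0.89 and 6.40 CPM on day 16, 3.88 and 2.74 on day 23, 5.63 and 13.3 on day 31, 50.5 and 38 on day 38, and 128 and 59.2 on day 45, with MUC5AC the most abundant on day 38, MUC5B on day 45 and SCGB1A1 at 3 counts or fewer in 8 libraries. The 3 airway basal genes summed to 15.7 and 12.8 CPM on day 16, 10.4 and 6.52 on day 23, 11 and 23.3 on day 31, 26.8 and 21.9 on day 38, and 47.9 and 40.3 on day 45, with TP63 the most abundant on day 16 and KRT5 on days 38 and 45. MUC5AC was called higher on day 23, with 3 and 7 counts after 0 in both day 16 libraries, which sets no size for the rise. It rose on day 38 (4.43) and fell on day 45 (−4.30), while MUC5B rose on days 38 and 45 (2.41 and 2.25) and SCGB3A2 on day 45 (2.66). The edgeR adjusted p of these calls ran from 2.8e-05 to 0.0405. TP63 fell on day 23 (−2.05, edgeR adjusted p = 0.0104) and KRT5 rose on day 31, from 0 and 1 counts to 39 and 127 (edgeR adjusted p = 2.58e-06), and on day 45 (1.57, edgeR adjusted p = 0.0309). The daily means of both sums were highest on day 45, as that of JAG2 was, and so were those of the thyroid, mural and ciliated sums. Their part in the JAG2 values was not tested.

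The remaining lists held ciliated, neuroendocrine, neural and cardiac genes. The 3 ciliated genes summed to 14.3 to 31.8 CPM, and FOXJ1 fell on day 38 (−1.78, edgeR adjusted p = 9.95e-04) while DNAH5 rose (1.64, edgeR adjusted p = 0.0315). The 3 neuroendocrine genes summed to 1.27 to 28.6 CPM, the most abundant from day 31 on being CALCA, which rose on day 23, from 1 and 2 counts to 12 and 20 (edgeR adjusted p = 0.00495), and on day 38 (2.04, edgeR adjusted p = 0.0015), with CHGA and SYP at no more than 27 counts. The 5 neural genes summed to 16.6 to 56.1 CPM, and on day 38 TUBB3 rose (1.20, edgeR adjusted p = 0.0219) and NEUROG2, a proneural factor that HES proteins are known to repress, fell (−3.04, edgeR adjusted p = 2.06e-04) from 10.5 and 21.6 CPM to 2.48 and 1.40. SOX2 rose on day 31 and fell on day 45 (2.15 and −2.0, edgeR adjusted p = 0.0248 and 0.00929). The 4 cardiac genes summed to 7.20 to 108 CPM, with MYH6 the most abundant in every library, and MYH6 rose on day 38 (2.57, edgeR adjusted p = 1.81e-08). Of the 44 marker genes, 34 exceeded 5 CPM in at least 1 library, among them, at their highest, TP63 (15.2 CPM), NGFR (8.42), SCGB3A2 (30.6), MUC5AC (29.7), SOX2 (24), ELAVL3 (6.23) and TNNT2 (11). The calls of PDGFRA, CSPG4, KDR, TEK, MUC5B, DNAH5 and TUBB3 in the step to day 38 were lost when 1 or more of the libraries of days 31 and 38 was left out. In the other steps, the calls of COL1A2, TP63, MUC5AC and CALCA on day 23, of LUM and SOX2 on day 31, and of PDGFRA, KRT5, SCGB3A2, MUC5B and SOX2 on day 45 were lost without 1 or more libraries. DESeq2 did not make the calls of MUC5B on days 38 and 45 and of DCN on day 45.

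The genes whose course over the 10 libraries was most like that of a member were found by Pearson's r of log2 CPM among 13063 genes with a mean of at least 5 CPM outside the pathway list, as a description that rests on libraries of shared days and depth. NOTCH1 was followed most closely by CASP6 (r = 0.969), BRSK2 (0.969) and ITGA2 (0.967), NOTCH2 by NKAIN4 (0.987), SCNN1B (0.977) and COL5A1 (0.972), and NOTCH3 by TTYH3 (0.947), PRXL2B (0.933) and XPO6 (0.923). JAG1 was most like QRICH2 (0.948), UAP1 (0.947) and SYNM (0.942), and JAG2 most like HSPA4L (0.962), SNORD46 (0.961) and ARFGAP3 (0.959). Among the targets, HES1 was most like CROT (0.95), SORL1 (0.948) and LIMCH1 (0.925), HES4 most like SEMA5A (0.966), MAP2K2 (0.946) and AHNAK2 (0.945), and HEY1 most like APEH (0.954), CDCA7 (0.946) and SERINC5 (0.941). Between members, the 5 pairs farthest from 0 by the same measure were NOTCH1 and JAG1 (−0.85), NOTCH2 and HEY1 (−0.82), NOTCH3 and HES1 (−0.76), NOTCH2 and HES4 (0.76) and JAG2 and HES4 (0.75).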

How the data were processed

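RNA-seq counts of 10 libraries were analysed. By the study's methods and the submitters' processing notes, reads were trimmed (Trimmomatic), aligned to GRCh38.p13 (HISAT2) and counted per gene (HTSeq) by the authors. The authors deposited raw counts for 28265 gene symbols. Tool versions and the strand setting are not given in the sources used here, and reads of overlapping genes on opposite strands cannot be told apart. The study's methods do not describe removal of PCR copies, with or without molecular identifiers. Totals ran from 7247268 to 10333933 counts, and the floor is 3 counts.

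The 21014 genes that reached 5 counts in 2 or more libraries were tested with edgeR 4.0.16 in R 4.3.3 (TMM factors of 0.896 to 1.07, 1 mean per day over all libraries, 5 residual degrees of freedom). P-values were adjusted by Benjamini-Hochberg over all genes tested. Standard errors are approximate, from the size of the log2 fold change over √F. The 2 libraries of each day differed by more than sampling noise (chi-square per degree of freedom of 8.38 to 13.7). Levels per kb use the MANE transcript of GENCODE 44, in which 91.1% of the symbols were matched, and gene positions come from it. The procedure was tested on simulated data, and no values from that test are given here.

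The members and lists were chosen with earlier results of these data known. From the pathway list, genes called in a weekly step with a mean of at least 5 CPM are named, and for a role with none the most abundant gene. NRARP and NUMB, and the other genes named as called in no step, were added after their values were seen. From the marker lists, genes above 5 CPM in any library are named, and those near 0 that define a cell type. Alternatives are given in the closing section. Some genes of the lists are not reported here. The libraries of cells kept on cAMP to days 38 and 45 were not analysed here.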

Additional observations from a re-analysis of the deposited data

How the results depend on the processing

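Calls among the 10 members were recounted under DESeq2 1.42.0, library size alone, upper-quartile factors, no low-count filter, filterByExpr, a fit of only the 2 days compared, the replicate number as a block, robust estimation, a minimum size of 1 on the log2 scale with the adjusted p, and without each library. The replicate numbers did not pair the libraries (correlation of deviations from the day means of −0.032 to 0.0199), and with the replicate block 5 members were called at day 23 against day 16 and 8 over any day, as without it. Requiring that size left 2 of 5 calls at day 23 against day 16, 2 of 5 at day 38 against day 31, 0 of 2 at day 45 against day 38, 1 of 4 at day 31 against day 16 and 2 of 4 at day 45 against day 31. Without the low-count filter 1 of 2 calls was left at day 45 against day 38, and in a fit of the 2 days alone 2 of 4 were left at day 31 against day 16. Leaving out 1 library gave 3 to 5 calls at day 23 against day 16 (fewest without day 16 replicate 2), 1 to 6 at day 38 against day 31 (2 without day 31 replicate 2, and 1 without each of the other 3 libraries of these days), 0 to 2 at day 45 against day 38 (fewest without day 45 replicate 2), 2 to 4 at day 31 against day 16, 2 to 4 at day 45 against day 31 and 7 to 9 over any day. Calls over all genes fell as well when a library of the 2 days was left out, from 2296 to between 1350 and 2149 at day 23 against day 16, from 3160 to between 1764 and 2193 at day 38 against day 31, from 2353 to between 1166 and 1629 at day 45 against day 38, from 2705 to between 1661 and 2370 at day 31 against day 16, and from 4719 to between 3300 and 3654 at day 45 against day 31. Over any day, 7628 genes were called, and 6331 to 7763 without 1 library. When a day keeps 1 library, that library is assumed to vary like those of the other days. Over the 18 refits (all of these but the minimum size), 314 values of the members' calls kept their call, 46 lost it and 0 changed sign. For the pathway genes 494 kept it and 64 lost it in the weekly steps, for the markers 748 and 61, with no change of sign among those called. The minimum size by itself left 7 of the members' calls and ended 13, left 9 and ended 22 for the pathway genes, and left 37 and ended 8 for the markers. The cause of each lost call was not tested, except that fewer libraries were compared. Depth limits the precision for DLL1 and DLL4, which had 0 to 52 counts per library.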
